A study of Arabidopsis thaliana with 12 samples.

Results

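The genes described here are 3 nuclear genes of *Arabidopsis thaliana* whose products make photosynthetic pigments in the plastid: CHLM (AT4G25080), AT1G74470 and Z-ISO (AT1G10830). They were chosen by name, on condition that the array's annotation gave a probe to that gene alone. Each had 1 such probe, so 3 of the 3439 probes on the array are concerned. Spot intensity had been read in 6 samples of the laf6 mutant, which lacks the plastid protein atABC1 and was dark adapted and then lit normally for 1 h, and in 6 samples of dark-adapted wild type. Both groups were of ecotype Landsberg, and the RNA was total RNA. Genotype and light changed together, so that the effects of the mutation and of the light cannot be told apart. No tissue, age or growth stage was named in the labels.

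Chlorophyll is assembled from 2 parts that are made separately, a tetrapyrrole ring and a phytyl tail. After magnesium has been inserted into protoporphyrin IX, the magnesium-protoporphyrin IX methyltransferase encoded by CHLM adds a methyl group on the way to chlorophyll. Geranylgeranyl reductase, the product of AT1G74470, reduces the geranylgeranyl chain to the phytyl tail, which chlorophyll shares with tocopherols and phylloquinone. Carotenoids draw on the same geranylgeranyl precursor, and Z-ISO, the 15-cis-zeta-carotene isomerase, turns an early cis intermediate into the form that the next desaturase accepts, a step that light itself can carry out in part. The missing protein atABC1 is the SUFB component of plastid iron-sulfur cluster assembly and has been linked to tetrapyrrole metabolism.

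Samples numbered 1 and 2, 3 and 4, and 5 and 6 of a group were averaged to 3 replicates per group, because such pairs deviated together from their group mean. The median intensity of a sample was 0.161 to 0.170 in illuminated laf6 and 0.218 to 0.289 in dark wild type, and 14.6% to 19.3% and 13.0% to 15.7% of the probes were listed at 0. None of the 3 genes had a value of 0 or at the ceiling of 100 in any sample. Because laf6 values were lower over the array, with a median log2 difference of -0.54 as deposited and -0.075 after quantile normalisation, each gene is given on both scales. Nothing in the labels names separate plants, so that a p-value covers the spread of these samples, and that spread may be technical. The mutated gene SUFB had no probe of its own, so the labels could not be checked by its level.

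Of the 3 genes, none was called by limma at an adjusted p under 0.05 after quantile normalisation, where 9.74% of all probes were. At an unadjusted p under 0.05 in limma 1 of the 3 passed, Z-ISO, against 25.9% of all probes, and with the replicate block Z-ISO again passed, against 25.6% of all probes. A share of 1 in 3 lies near both. As deposited, Z-ISO had lower values in every sample of illuminated laf6 than in any of dark wild type. The mean of AT1G74470 was slightly higher in laf6, within the spread of the replicates, and CHLM did not separate the groups. In the values as deposited 1 of the 3 was called, which was Z-ISO, against 13.8% of all probes. With the replicate number as a block, none of the 3 was called, and 0.349% of all probes were, with 2 residual degrees of freedom. That fit called 12 probes, and 295 were called when a pseudocount at the 25th percentile replaced the floor for zeros, where none of the 3 genes was called (adjusted p from 0.0911 to 0.379 in limma).

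**Figure D1:**
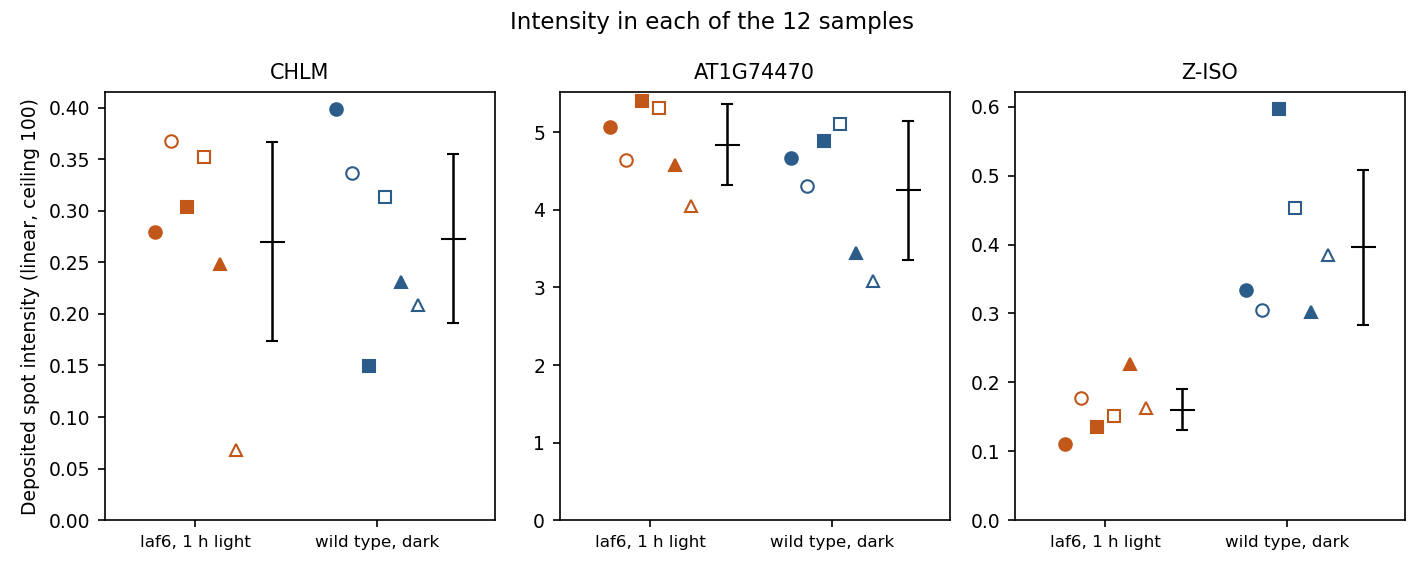
Deposited spot intensity (linear, y axis from 0) of CHLM, AT1G74470 and Z-ISO in the 6 samples of laf6 after 1 h of light (orange) and the 6 of dark wild type (blue). Circles, squares and triangles are samples 1 and 2, 3 and 4, and 5 and 6, with the second of a pair open, and black bars are the mean ± SD of the 3 averaged replicates. For Z-ISO the highest laf6 sample, 0.227, lies below the lowest wild type sample, 0.302, while the groups overlap for CHLM and AT1G74470.

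Z-ISO, the carotenoid isomerase, had deposited intensities of 0.110, 0.177, 0.135, 0.151, 0.227 and 0.163 in laf6 samples 1 to 6, against 0.334, 0.305, 0.597, 0.454, 0.302 and 0.384 in wild type samples 1 to 6. The groups did not overlap, which held for 22.5% of all probes in either direction. The averaged replicates had 0.161 ± 0.0301 in illuminated laf6 and 0.396 ± 0.113 in dark wild type (SD, n = 3 each), which is 2.47-fold lower in laf6. The log2 difference as deposited was -1.28 ± 0.26 (SE, adjusted p = 0.0438 in limma).

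After quantile normalisation the difference of Z-ISO was smaller, at -0.73 ± 0.19 (SE) on the log2 scale, with a 95% interval from -1.24 to -0.23. That is 1.66-fold lower in laf6 (adjusted p = 0.0909 in limma, or 0.144 with the replicate block). The normalised log2 values of the 12 samples then overlapped, since sample 5 of laf6, at -1.90, lay above sample 2 of wild type, at -1.97. The test of Z-ISO therefore ended on different sides of the threshold in the 2 scales, while the sign was the same.

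Z-ISO was also lower in laf6 at each of the 6 sample numbers, by 0.41 to 2.15 on the log2 scale as deposited, where 34.2% of all probes were lower at all 6. For the averaged replicates numbered 1, 2 and 3 its deposited log2 differences were -1.16, -1.88 and -0.81. The median over all probes for the same replicates was -0.47, -0.67 and -0.29. The replicate with the largest difference of Z-ISO was thus also the one with the largest shift of the array, and the smallest of both fell in replicate 3. After quantile normalisation the differences of Z-ISO for replicates 1, 2 and 3 were -0.60, -1.09 and -0.52, in the same order of size. The part of the array's shift in the difference of Z-ISO was not tested.

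CHLM, the methyltransferase of the chlorophyll branch, had 0.279, 0.367, 0.303, 0.352, 0.249 and 0.0683 in laf6 samples 1 to 6, against 0.399, 0.337, 0.150, 0.314, 0.231 and 0.209 in wild type samples 1 to 6. The groups overlapped almost fully, and the lowest value of all came from laf6 sample 6. The averaged replicates had 0.270 ± 0.0964 in illuminated laf6 and 0.273 ± 0.0821 in dark wild type (SD, n = 3 each). As deposited, the log2 difference was -0.052 ± 0.39 (SE, adjusted p = 0.966 in limma), with a 95% interval from -1.08 to 0.97.

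After quantile normalisation the sign of CHLM turned, to 0.49 ± 0.41 (SE, adjusted p = 0.525 in limma). Its 95% interval, from -0.58 to 1.56, held folds from 0.669 to 2.96, so neither a moderate fall nor a large rise was outside it. The readings of 1 averaged replicate lay far apart for this gene: samples 5 and 6 of laf6 differed 3.64-fold, and samples 3 and 4 of wild type 2.09-fold, while the other 4 pairs differed 1.10-fold to 1.32-fold. With laf6 replicate 3 taken from sample 5 alone, chosen after seeing the data, the normalised difference was 0.70 ± 0.29 (adjusted p = 0.228 in limma). Leaving out single replicates gave 0.29 without wild type replicate 2, 0.31 and 0.32 without laf6 replicates 2 and 1, 0.75 without wild type replicate 1 and 0.84 without laf6 replicate 3. None of these was called.

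AT1G74470, the geranylgeranyl reductase that makes the phytyl tail, was among the bright probes of the array, ranked 111 of 3439 by mean intensity. Its deposited intensities were 5.07, 4.64, 5.40, 5.31, 4.58 and 4.05 in laf6 samples 1 to 6, against 4.67, 4.31, 4.89, 5.11, 3.45 and 3.08 in wild type samples 1 to 6. Samples 5 and 6 were the lowest of each group, and the groups overlapped. The averaged replicates had 4.84 ± 0.520 in illuminated laf6 and 4.25 ± 0.892 in dark wild type (SD, n = 3 each).

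The log2 difference of AT1G74470 was 0.23 ± 0.10 (SE) after quantile normalisation, with a 95% interval from -0.024 to 0.48 (adjusted p = 0.230 in limma, or 0.202 with the replicate block). As deposited it was 0.21 ± 0.20 (adjusted p = 0.496 in limma), with an interval from -0.32 to 0.74. The interval of the normalised fit ended at a 1.40-fold increase. At each of the 6 sample numbers the gene was higher in laf6, by 0.055 to 0.41 on the log2 scale as deposited, and 6.89% of all probes were higher at all 6. After normalisation it was the steadiest of the 3 genes: its spread within groups was 0.099 on the log2 scale, against 0.24 for Z-ISO and 0.54 for CHLM. That was smaller than the spread of 94.4% of all probes. Among probes of like brightness the median spread was 0.18 for AT1G74470 and 0.31 for Z-ISO and CHLM. With replicates centred on their medians its difference was 0.81 ± 0.17 (SE, adjusted p = 0.0619 in limma), against 0.23 in the planned fit. The 95% interval was then from 0.36 to 1.25, so the size of the difference depended on the scaling.

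**Figure D2:**
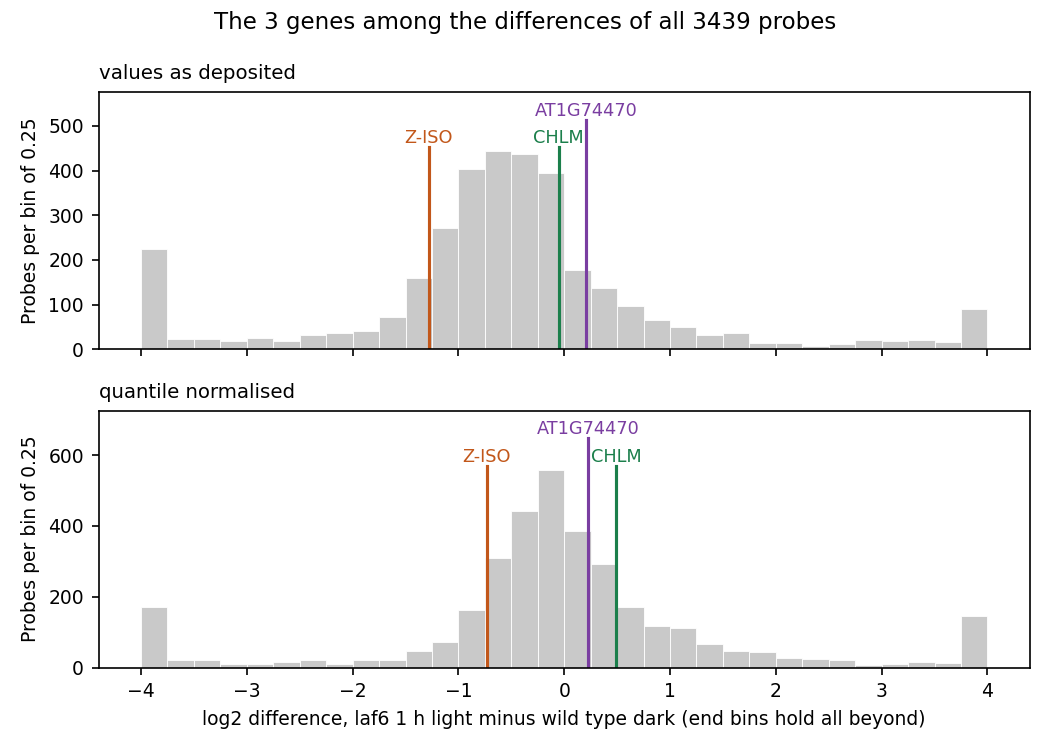
Number of probes (y axis) by log2 difference of illuminated laf6 minus dark wild type (x axis, bins of 0.25, end bins holding all differences beyond) as deposited (top) and after quantile normalisation (bottom). Vertical lines mark the 3 genes: as deposited Z-ISO is at -1.28, CHLM at -0.052 and AT1G74470 at 0.21, and after normalisation at -0.73, 0.49 and 0.23.

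The shift of the array was read beside each gene in probes of like brightness. CHLM and Z-ISO lay at ranks 1491 and 1465 by mean intensity and fell in the same class, class 6 of 10 from dim to bright, with 344 probes. The median deposited log2 difference of that class was -0.62. Z-ISO, at -1.28, had 12.2% of its class below it, and CHLM, at -0.052, had 82.3% below it. AT1G74470 was in class 10, the brightest, where the median was -0.25 and 70.3% of the probes had a lower difference than its 0.21. After normalisation these shares were 11.9% for Z-ISO, 81.4% for CHLM and 68.0% for AT1G74470. Set against probes as bright as themselves, the order of the 3 genes was the same on both scales, with Z-ISO on the low side and CHLM and AT1G74470 on the high side, and none at the extreme of its class. Both scales come from the same values, so this likeness is not separate support.

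**Figure D3:**
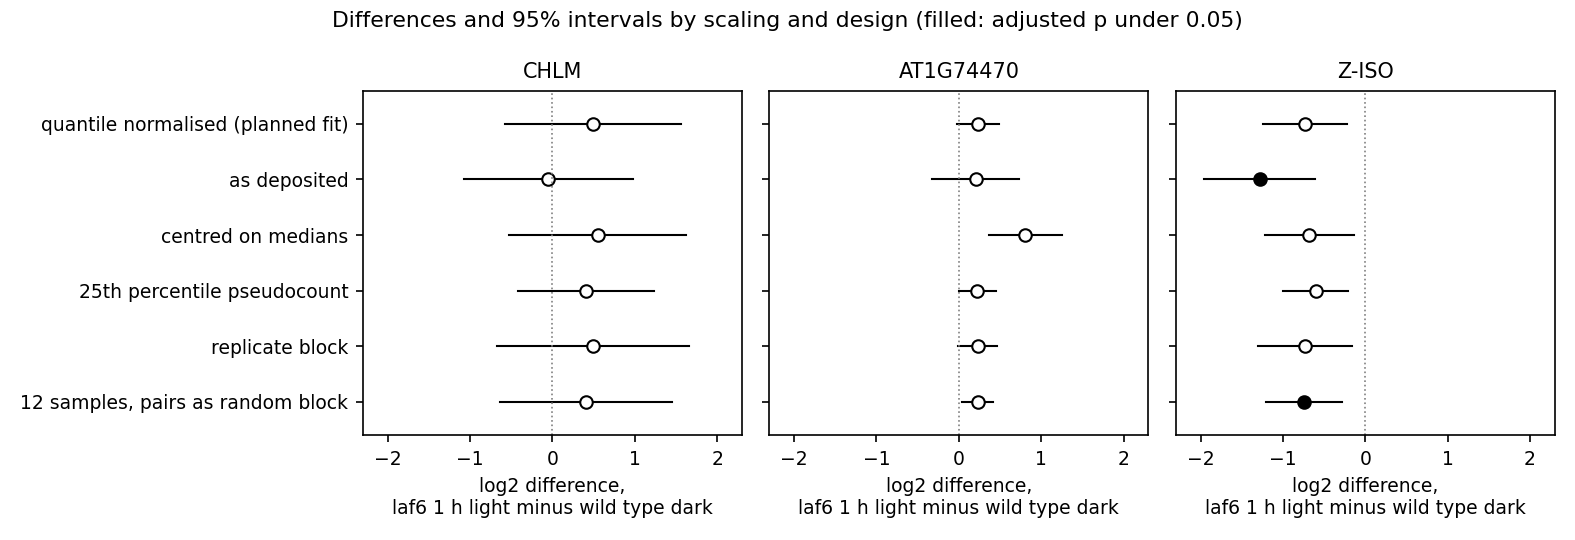
Log2 difference of illuminated laf6 minus dark wild type (x axis, points) with its 95% interval (lines) for each gene under 6 ways of scaling or fitting, filled where the adjusted p in limma was under 0.05. Z-ISO is below 0 in all 6 and filled in 2, as deposited and with pairs as a random block, and CHLM crosses 0 in all 6. AT1G74470 is above 0 in all 6 and filled in none. Its interval lies above 0 with medians centred, with the pseudocount and with pairs as a random block, and crosses 0 in the others.

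The ratio of 2 probes within a sample does not depend on a scale factor common to all probes of that sample, so it was used to ask whether the genes changed unequally. It does not set the level of one gene against another, because probes differ in how brightly they label. The ratio of Z-ISO to AT1G74470 averaged -4.93 ± 0.40 on the log2 scale in illuminated laf6 and -3.44 ± 0.32 in dark wild type (SD, n = 3 each), a difference of -1.49, or 2.80-fold lower in laf6. In quantile normalised values the difference was -0.96. The deposited shift was not one common factor for these 2 probes, with a median of -0.62 in the brightness class of Z-ISO and of -0.25 in that of AT1G74470, and its part in the difference was not tested. The 3 laf6 replicates, from -5.23 to -4.47, lay below the 3 of wild type, from -3.81 to -3.25. The exact two-sided permutation p was 0.1, the smallest that 3 against 3 can give, and 0.3 after adjustment over the 3 ratios. The 12 unaveraged samples did not overlap either, with -5.53 to -4.33 in laf6 and -3.82 to -3.00 in wild type. The exact permutation p over these was 0.00216, the smallest that 6 against 6 allows, and 0.00649 adjusted, but this counts both readings of a pair as separate samples.

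The ratio of Z-ISO to CHLM averaged -0.69 ± 0.86 in illuminated laf6 and 0.54 ± 0.70 in dark wild type (log2, SD, n = 3 each), a difference of -1.23. The replicates overlapped, from -1.20 to 0.30 in laf6 and from -0.20 to 1.18 in wild type, and the exact two-sided permutation p was 0.2 (0.3 adjusted). The ratio of CHLM to AT1G74470, both of chlorophyll synthesis, was -4.24 ± 0.46 in illuminated laf6 and -3.98 ± 0.42 in dark wild type (n = 3 each), a difference of -0.26 that lay within the spread of the replicates (exact permutation p = 0.5). None of the 3 ratios could pass a threshold of 0.05 with 3 replicates per group. Within replicate numbers 1, 2 and 3, the ratio of Z-ISO to AT1G74470 differed by -1.27, -1.98 and -1.21, and that of Z-ISO to CHLM by -0.97, -2.38 and -0.34. Both were thus lower in laf6 at all 3 numbers, and for both the exact paired permutation p was 0.25, the smallest that 3 pairs allow. The ratio of CHLM to AT1G74470 differed by -0.30, 0.40 and -0.87 (exact paired permutation p = 0.75).

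**Figure D4:**
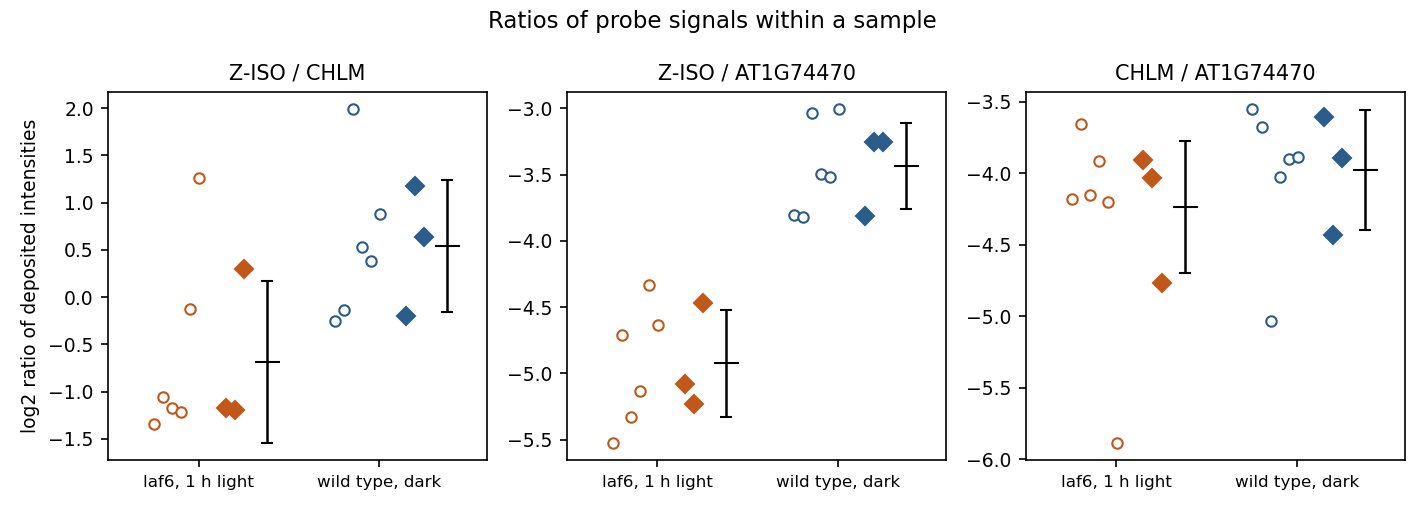
Log2 ratio of deposited intensities of 2 probes within a sample (y axis) for laf6 after 1 h of light (orange) and dark wild type (blue). Open circles are the 12 samples, diamonds the 3 averaged replicates per group and black bars their mean ± SD. The ratio of Z-ISO to AT1G74470 separates the groups in all samples, with laf6 at -5.53 to -4.33 and wild type at -3.82 to -3.00, and the other 2 ratios overlap.

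The pathways around these genes were sparsely covered. Of 129 loci on 7 lists for tetrapyrrole, carotenoid, isoprenoid precursor, tocopherol and phylloquinone, chlorophyll breakdown, iron-sulfur cluster and light signalling genes, 7 had a probe of their own, the 3 genes above among them. A further 8 shared a probe with other genes and were not named. The tetrapyrrole list had 5 of 45 loci measured, of which 0 rose and 0 fell in limma. At an unadjusted p under 0.05 in limma 1 of the 5 passed, SIRB, a share near the 25.9% of all probes. Over the 4 loci with values above 0 in both groups, the median log2 difference was 0.36 after normalisation, with 3 above 0 and 1 below, and 0.077 as deposited, with 2 above and 2 below, beside -0.075 and -0.54 over all probes. The carotenoid list had Z-ISO alone of 28 loci. No locus of chlorophyll breakdown, of the isoprenoid precursor pathway, of iron-sulfur cluster assembly or of light signalling had a probe of its own.

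The 3 other measured tetrapyrrole loci differed among themselves. HEMA3, an isogene of glutamyl-tRNA reductase at the entry to the pathway, had a median of 0.505 in laf6 (range 0.410 to 0.618) and of 0.845 in wild type (range 0.645 to 0.993). Its deposited samples did not overlap, which held for 22.5% of all probes in either direction, and its normalised samples overlapped. Its log2 difference was -0.68 as deposited and -0.33 ± 0.13 (SE) after normalisation (adjusted p = 0.0702 and 0.196 in limma). SIRB, the sirohydrochlorin ferrochelatase of the siroheme branch, had a median of 0.121 in laf6 (range 0.0614 to 0.230) and of 0.0987 in wild type (range 0.0146 to 0.128). Its groups overlapped, and its log2 difference was 0.52 ± 0.48 as deposited and 1.19 ± 0.44 after normalisation (SE, adjusted p = 0.468 and 0.182 in limma). The probe was dim, at rank 2317 of 3439 by mean intensity. Its lowest wild type value, 0.0146 in sample 2, stood apart from the others, and no difference without that sample is given here. AT5G63290 was listed at 0 in all 6 wild type samples and in 5 of 6 laf6 samples, which leaves no usable difference.

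Of the tocopherol and phylloquinone list, whose products carry the phytyl tail or a tail of like origin, 1 of 11 loci was measured. This was AT1G78620, which was also the 1 locus of the 7 that was called after normalisation, a share near the 9.74% of all probes. It had a median of 1.93 in laf6 (range 1.69 to 2.28) and of 1.35 in wild type (range 1.07 to 1.58). Its deposited samples did not overlap, which held for 22.5% of all probes in either direction. Its normalised log2 difference was 0.69 ± 0.13 (SE). Its adjusted p was 0.0470 in limma, 0.137 with the replicate block and 0.111 as deposited. Of these fits only the planned one called it, and its result under the other alternatives is not given here. Z-ISO and HEMA3 were thus below, and AT1G78620, AT1G74470 and SIRB above, their wild type means on both scales, and CHLM changed sign between the scales. Of all probes, 76.3% had a log2 difference below 0 as deposited and 56.1% after normalisation.

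The genes whose values ran most like each of the 3 were sought among 455 other probes of 1 gene without a value of 0, by Pearson's r over the 12 samples after normalisation. These correlations include the difference between the groups and rest on samples that deviated together in pairs and may be repeat readings, so they only describe. AT1G74470 was most like PSBY, a small subunit of photosystem II (r = 0.88), followed by AT3G26630 (r = 0.85) and AT1G07850 (r = 0.84). PSBY averaged 3.36 ± 0.534 in illuminated laf6 and 2.65 ± 0.639 in dark wild type (SD, n = 3 each) and was not called (adjusted p = 0.182 in limma, or 0.125 with the replicate block). Z-ISO was most like AT1G18060 (r = 0.89), AT3G09250 and AT4G03150 (both r = 0.87), which like Z-ISO had negative normalised log2 differences, of -0.53, -0.51 and -1.28, and were not called (adjusted p from 0.0912 to 0.124 in limma). CHLM had the loosest matches, with AT4G08630 at r = 0.81, AT5G65490 at 0.75 and AT2G38550 at 0.73.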

How the data were processed

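RNA of 12 samples was measured on one array design. The deposited intensity values are linear, from 0 to 100; the authors' background correction, scaling and image reading are not given in the sources used here. Of 3439 probes, the platform annotation, which can be old, gave 1 gene for 692, several for 870 and none for 1877; 690 of the 692 matched the TAIR10.1 gene table, used for names only.

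Pairs of samples numbered 1-2, 3-4 and 5-6 were averaged as intensities. Over 1361 probes with a mean above 0.3 and no 0, deviations from the group mean correlated at 0.14 to 0.46 within such pairs and at -0.50 to -0.08 in other pairs. Same-numbered averaged replicates of the 2 groups also deviated together, with correlations of 0.57, 0.48 and 0.27 (over all probes 0.19, 0.080 and 0.15). The labels do not state such a pairing, and the planned fit did not use it. Unless a block or a paired test is named, errors, intervals, calls and p-values therefore ignore the pairing. Blocked fits and paired ratio tests are given as alternatives.

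Zeros were set to the lowest positive value, values taken to log2 and quantile normalised, and groups compared with limma 3.58.1 (lmFit, eBayes; R 4.3.3), as laf6 minus wild type, with Benjamini-Hochberg adjustment over all probes. On simulated data for this comparison (3439 probes, 200 changed) the fit recovered 18% of changes of 1 and 64% of changes of 2 on the log2 scale, with 4.65% of calls false. The simulated noise was independent between replicates, with no shift of the array, and no changed probe was among the dimmest 25%. These shares may therefore not hold for the measured values. Ratios were tested by exact permutation. The members, lists and tests were chosen with earlier results of these data known. Named genes are the 3 members, every measured tetrapyrrole or carotenoid locus, called loci of the other lists, and the 3 genes most like each member. Alternatives were scaling, the filter on dim probes, a pseudocount, the replicate block, unaveraged samples, eBayes settings and leaving out replicates. A planned search of promoter motifs was not run, and no sequence was used here. The number of samples limits the precision.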

Additional observations from a re-analysis of the deposited data

Results flagged for a closer look

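In 3 groups of 6 samples, 1 sample stood apart from the other 5 by a gap above Dixon's 95% critical value for the share of a group's range. For CHLM this was laf6 sample 6, with an intensity of 0.0683, where the gap was 0.768 of the range on the log2 scale. For SIRB it was wild type sample 2, with 0.0146 (0.777 of the range on the log2 scale). For AT5G63290 it was laf6 sample 2, with 0.0866, the only sample above 0. The 7 measured loci gave 26 such comparisons over groups and scales, and chance flags about 1 in 20. That rate is for independent values, whereas these samples deviated together in pairs. For AT5G63290 the other 5 values were all 0, so its gap was the whole range by construction. The value of CHLM without laf6 sample 6 was 0.70, against 0.49 with it (normalised log2 difference), and neither was called by limma.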

How the results depend on the processing

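The sign of Z-ISO and of AT1G74470 was the same under all 17 alternatives, and that of CHLM under 16, the exception being the values as deposited (-0.052). CHLM was called by limma under none of the 17 (adjusted p from 0.228 to 0.966). Z-ISO was called under 4: as deposited (-1.28) and over 12 unaveraged samples, without a block, with the number as replicate block or with pairs as a random block (-0.74 each). AT1G74470 was called only over 12 samples with the number as replicate block (0.23, adjusted p = 0.0165 in limma). That fit, and the fit over 12 unaveraged samples without a block, count both samples of a pair, which deviated together, as separate replicates. Against 335 probes called over the array there were 12 with the replicate block, 469 with the 25th percentile pseudocount, 295 with that pseudocount and the replicate block together, 774 over 12 unaveraged samples, 764 with their number as block, 649 with pairs as a random block and 504 with trend and robust eBayes. As deposited, 114 were higher and 362 lower in laf6, against 189 and 146 after quantile normalisation and 209 and 45 with medians centred. Leaving out any 1 of the 6 replicates, with fewer samples by construction, gave 95 to 197 calls, and log2 differences of 0.29 to 0.84 for CHLM, 0.16 to 0.29 for AT1G74470 and -0.88 to -0.62 for Z-ISO. Of the 7 measured pathway loci, 1 was called in the planned fit (AT1G78620), 1 as deposited (Z-ISO) and 0 with the replicate block, where limma called 881 of all probes at an unadjusted p under 0.05. Over 12 unaveraged samples the ratio of Z-ISO to CHLM differed by -1.18 (exact permutation p = 0.0476, 0.0714 adjusted) and that of Z-ISO to AT1G74470 by -1.50. The permutation over these also counts both samples of a pair as separate. The ratio of Z-ISO to AT1G74470 was -0.96 in normalised values. The ratio of CHLM to AT1G74470 turned to 0.26 in normalised values and to 0.00829 without laf6 replicate 3. Leaving out 1 replicate gave -1.73 to -0.91, -1.72 to -1.34 and -0.48 to 0.00829 for the 3 ratios. For the other changes the cause was not tested.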
